A study of Mus musculus with 24 samples.

Results

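The mitochondrial ribosome makes the few proteins that the mitochondrial genome still encodes, parts of the respiratory chain and of ATP synthase. The transcripts of its large subunit (Mrpl genes), its small subunit (Mrps genes) and 5 of the factors that drive its translation cycle were followed in cerebellum, brainstem and liver of Atxn2 Knock-In and wild type mice. Members were taken by name: every probe set to which the platform's annotation gives a single gene symbol that starts with Mrpl or Mrps and a number or is Gfm1, Gfm2, Tufm, Tsfm, Mtif2 or Mtif3. This gave 137 of the 45037 probe sets tested, for 78 genes. The large subunit had 85 probe sets (46 genes), the small subunit 44 (27 genes) and the translation factors 8 (5 genes). Mtif3 was not found in the annotation used, and 6 probe sets that were shared between Mrps6 or Mrps25 and another gene were left out. The rule itself used no measured value, but it was set with earlier results of these data known.

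The Knock-In mice (CAG42, marked KI in the plots) carried 42 CAG repeats in both copies of their own Atxn2 gene, under its own promoter, where the wild-type mouse allele (WT) has 1 CAG. Per the methods the selection cassette had been removed, the line had been crossed into C57BL/6 for at least 8 generations, and the WT animals were littermates from heterozygous matings, all aged 18 months. There were 4 CAG42 and 4 WT arrays in each of the 3 tissues, 24 in all, each giving RMA-normalized log2 values. The labels give tissue, genotype and replicate number only, and no source used here states the sex.

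Mitochondrial ribosomal proteins are encoded in the nucleus, made in the cytosol, imported into mitochondria and assembled there with ribosomal RNA made from mitochondrial DNA. Mtif2 places the initiator tRNA on the ribosome, Tufm (elongation factor Tu) delivers each aminoacyl-tRNA, Tsfm (elongation factor Ts) recharges Tufm, Gfm1 (elongation factor G1) moves the ribosome along the mRNA by a codon, and Gfm2 helps to split the ribosome after termination. Many nuclear genes for mitochondrial proteins are known to be driven by ETS-family factors such as GABP and by NRF1.

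To show the stretches in which such factors could bind, the 250 bases before the annotated start were read from RefSeq (GRCm38.p6) for the 70 member genes found in that table, and 8 member genes were not found there. The letters CCGGAAG, an ETS-type motif, were searched on both strands and occurred in 16 of the 70 genes (22.9%), against 7.83% of all 27025 genes in the table. The palindrome CGCATGCG, the core of the NRF1 motif, occurred in 6 of the 70 (8.57%), against 1.75% of all genes. Member windows were also richer in G and C, with a median of 58.8% against 52.4%, and the part of base composition in these shares was not tested. By role, the ETS-type letters stood before 10 of 40 large subunit genes, 5 of 25 small subunit genes and 1 of the 5 factors. The NRF1 letters stood before 5 large subunit genes and 1 small subunit gene. Both occurred before 1 gene, Mrpl17. A match is a description of these letters and not a binding site, and a window without one says only that the letters are not in it. Shown are the gene whose transcript differed by genotype (Gfm1), the only factor gene with a match (Mtif2), the gene with both matches (Mrpl17) and a gene whose 4 probe sets were all higher in liver (Mrpl52). Capitals mark the matches, and each window ends at the base before the start.
Gfm1, chr3:67429865-67430114, plus strand: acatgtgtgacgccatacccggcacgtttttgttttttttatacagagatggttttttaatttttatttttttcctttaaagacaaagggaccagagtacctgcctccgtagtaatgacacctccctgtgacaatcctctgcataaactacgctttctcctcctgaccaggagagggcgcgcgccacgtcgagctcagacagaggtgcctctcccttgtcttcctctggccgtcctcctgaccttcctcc
Mtif2, chr11:29526147-29526396, plus strand: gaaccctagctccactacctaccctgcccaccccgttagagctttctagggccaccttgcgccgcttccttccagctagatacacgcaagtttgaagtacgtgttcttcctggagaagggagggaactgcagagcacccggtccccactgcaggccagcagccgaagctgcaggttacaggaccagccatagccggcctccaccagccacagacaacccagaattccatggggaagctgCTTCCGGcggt
Mrpl17, chr7:105811088-105811337, minus strand: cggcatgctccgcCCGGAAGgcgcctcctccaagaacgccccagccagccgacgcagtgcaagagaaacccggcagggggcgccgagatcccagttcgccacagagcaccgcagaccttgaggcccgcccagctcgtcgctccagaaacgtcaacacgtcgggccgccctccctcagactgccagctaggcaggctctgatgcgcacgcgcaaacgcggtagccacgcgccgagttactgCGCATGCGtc
Mrpl52, chr14:54426659-54426908, plus strand: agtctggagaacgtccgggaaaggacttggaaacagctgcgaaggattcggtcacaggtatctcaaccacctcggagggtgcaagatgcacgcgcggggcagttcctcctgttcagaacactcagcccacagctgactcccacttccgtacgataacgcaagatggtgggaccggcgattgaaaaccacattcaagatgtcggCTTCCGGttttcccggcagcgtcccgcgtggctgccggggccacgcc
The Gfm1 window held neither motif. In Mtif2 the ETS-type letters began 11 bases before the start, read on the minus strand, and in Mrpl52 47 bases before it. In Mrpl17 the NRF1 core lay 10 bases before the start and the ETS-type letters 237 bases before it.

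The tissue labels fitted their markers. Hepatocyte markers averaged 13.2 to 13.3 per array in liver and 4.1 to 5.4 in the brain tissues, and neuronal markers 11.7 to 12.1 in brain and 4.8 to 5.3 in liver, with no marker called by genotype. The median log2 value per array was 4.42 to 4.54 in cerebellum, 4.56 to 4.62 in brainstem and 4.13 to 4.25 in liver. WT liver replicate 1 stood apart: its members deviated from the tissue mean by 0.275 on average, against 0.067 to 0.187 on the other arrays. Liver differences by genotype of the factors, of each role and of the genes beside the ribosome are given without it as well. In whole tissue, fewer cells of a type and less RNA per cell cannot be told apart.

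To see whether the genotype changed the mitochondrial translation machinery, the genotypes were compared tissue by tissue (limma, Benjamini-Hochberg adjustment over all 45037 probe sets). In liver of CAG42 mice the elongation factor Gfm1 fell to 0.64 of the WT level by 1 of its 2 probe sets. No other member passed an adjusted p under 0.05 in liver, where 0.147% of all probe sets did. In cerebellum 0 of 137 members passed (0.0444% of all probe sets), and in brainstem 0 of 137 (0.0155%). At an unadjusted p under 0.05 there were 6 members in cerebellum, 7 in brainstem and 15 in liver. Over all probe sets that share was 3.59%, 4.17% and 8.61%, and among the members it was 4.38%, 5.11% and 10.9%.

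Gfm1 was read by 2 probe sets. The s_at ending of the called one, 1416570_PM_s_at, marks probes shared by several transcripts in the maker's naming. It measured 8.97, 9.04, 8.85 and 9.06 in the livers of the 4 CAG42 mice (log2) and 9.77, 9.53, 9.70 and 9.49 in those of the 4 WT mice. The genotypes did not overlap, with the highest CAG42 liver below the lowest WT liver. Means were 8.98 ± 0.10 and 9.62 ± 0.13 (SD, n = 4), a difference of -0.64 on the log2 scale (SE 0.08, 95% interval -0.81 to -0.47, adjusted p = 0.000726 from limma). An exact permutation test, two-sided, gave p = 0.0286, the smallest that 4 against 4 mice allow. Leaving out any 1 array gave -0.68 to -0.59, called each time. Fitted on the liver arrays alone, the same difference had an unadjusted p of 0.000133 and an adjusted p of 1.00 in limma, where 0 of all 45037 probe sets passed, so that the call rests on the spread shared by the 3 tissues.

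The second Gfm1 probe set, 1448381_PM_at, pointed the same way in liver and was not called. Its CAG42 livers measured 5.13, 5.01, 4.79 and 4.64 and its WT livers 5.88, 5.07, 5.07 and 5.19. The groups overlapped, and WT replicate 1, the array that stood apart, was the highest. The log2 difference was -0.41 (SE 0.14, adjusted p = 0.373 from limma), and without that array it was -0.21 (adjusted p = 0.255). Averaged over both probe sets, Gfm1 changed by -0.52 (adjusted p = 0.0159).

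In the brain tissues neither Gfm1 probe set passed the test. In cerebellum 1416570_PM_s_at measured 7.998, 8.11, 8.03 and 7.79 in CAG42 and 8.05, 8.07, 8.14 and 7.97 in WT mice, a log2 difference of -0.08. In brainstem the values were 8.08, 8.04, 7.91 and 7.96 against 8.02, 7.99, 8.08 and 8.08, a log2 difference of -0.05. The second probe set, 1448381_PM_at, measured 6.11, 6.26, 6.15 and 6.20 against 6.52, 6.23, 6.13 and 6.46 in cerebellum, at -0.16, and 6.55, 6.55, 6.48 and 6.42 against 6.55, 6.81, 6.86 and 6.62 in brainstem, at -0.21 (SE 0.14 each). By both probe sets the genotypes overlapped in both tissues. By 1416570_PM_s_at the genotype effect in liver was lower than that in cerebellum by -0.56 (adjusted p = 0.238 from limma) and than that in brainstem by -0.60 (adjusted p = 0.249), so that the difference between tissues did not pass. Among all probe sets, 0.00888% passed in each of these 2 comparisons of effects and 0.00222% in that of cerebellum with brainstem, with 0 members in any. At an unadjusted p under 0.05 these comparisons held 4, 8 and 1 members, against 3.98%, 4.69% and 1.68% of all probe sets.

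The other elongation, initiation and recycling factors did not pass the test in any tissue. Tufm 1447780_PM_x_at measured 7.85, 8.05, 7.80 and 7.78 in CAG42 liver and 8.27, 8.19, 8.05 and 7.99 in WT liver. The groups overlapped at their edge, and the log2 difference was -0.25 (SE 0.10, adjusted p = 0.496 from limma). Its other probe set, 1433952_PM_at, gave -0.14 in liver (adjusted p = 0.691). Without WT liver replicate 1 they stood at -0.20 and -0.08. In brainstem the Tufm probe sets had opposite signs, -0.20 and 0.16. Tsfm, the partner of Tufm, measured 6.39, 6.85, 6.44 and 6.55 in CAG42 liver and 7.18, 6.76, 6.49 and 6.67 in WT liver, a log2 difference of -0.22 (adjusted p = 0.625). These groups overlapped, and WT replicate 1 was again the highest: without it the difference was -0.08. The recycling factor Gfm2 (1426590_PM_at) measured 6.27, 6.03, 6.38 and 6.20 in CAG42 liver and 7.36, 6.56, 6.10 and 6.48 in WT liver, with a log2 difference of -0.41 (SE 0.18, adjusted p = 0.520). WT replicate 1 was the highest here too, the groups overlapped, and without that array the difference was -0.16. The other Gfm2 probe set, 1426591_PM_at, gave -0.06 in liver. In brainstem it measured 4.02, 3.92, 3.95 and 3.82 in CAG42 and 3.92, 4.54, 4.12 and 4.30 in WT mice, an overlapping difference of -0.29 (SE 0.12) that ran from -0.39 to -0.19 with 1 array left out. Mtif2 was the factor with the opposite sign, at 7.73, 7.73, 7.92 and 7.79 in CAG42 liver and 7.83, 7.79, 7.46 and 7.41 in WT liver, a log2 difference of 0.17 (adjusted p = 0.608). Over the 8 factor probe sets the median in liver was -0.23, with 7 below 0, against -0.01 over all probe sets. Without WT liver replicate 1 it was -0.12, again with 7 below 0, and with any 1 liver array left out it ran from -0.31 to -0.12. Under quantile normalization over all arrays this median was -0.28 and with each array centred on its median -0.20.

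**Figure D1:**
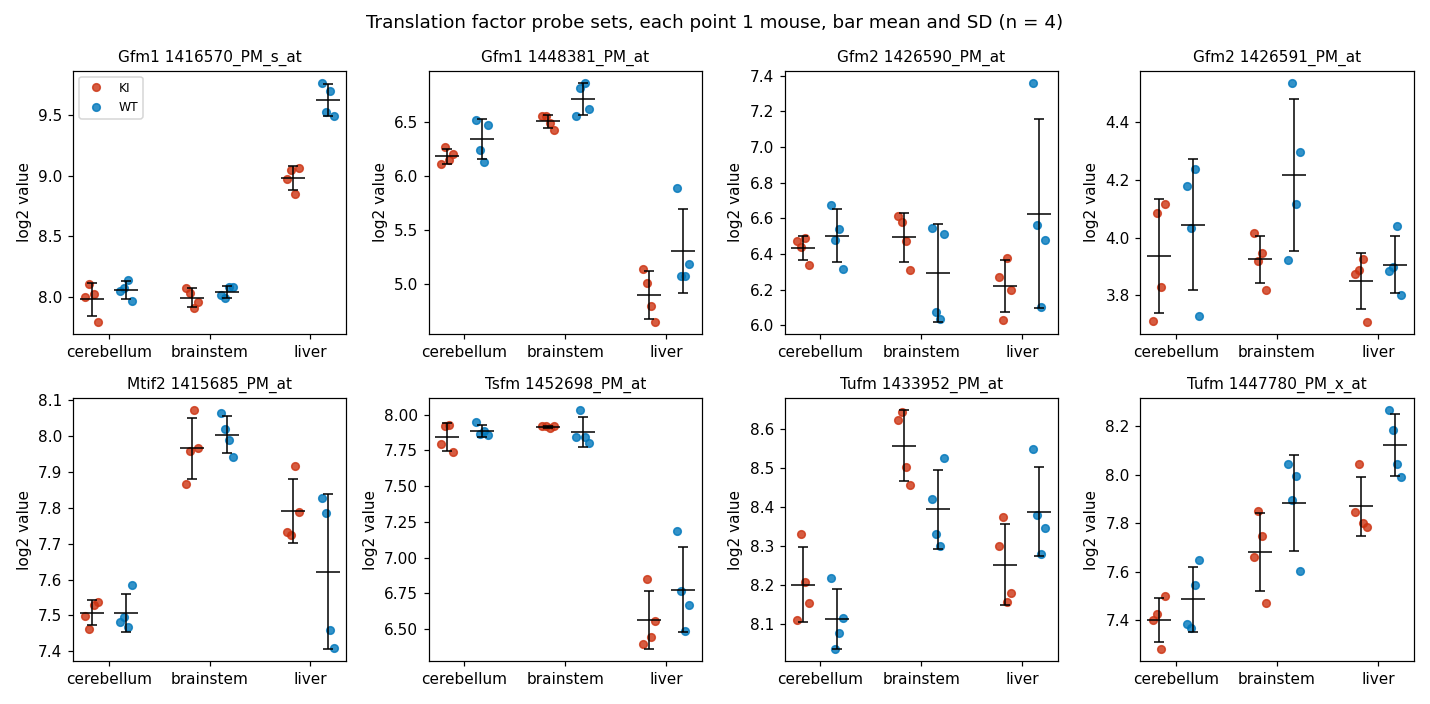
Log2 values of the 8 translation factor probe sets (one panel each) by tissue, with each point 1 mouse, CAG42 (KI) beside WT, and bars at the mean and SD of 4 mice. In the panel of Gfm1 1416570_PM_s_at the CAG42 livers lie between 8.85 and 9.06 and the WT livers between 9.49 and 9.77, while the genotypes overlap in both brain tissues.

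The ribosomal proteins were close to 0 in every tissue. In cerebellum the median log2 fold change was 0.04 over the large subunit, 0.03 over the small subunit and -0.07 over the factors, and over all probe sets it was -0.01. In brainstem the medians were -0.06, -0.05 and -0.04, with 98 of the 137 members below 0, and over all probe sets -0.01 with 53.8% below 0. In liver they were 0.00 for the large and 0.03 for the small subunit. Under quantile normalization over all arrays both liver medians turned to -0.04 and -0.02, while the cerebellum and brainstem medians kept their sign under this and under centring. Over all 137 members the medians were 0.026, -0.054 and 0.011. With 1 array left out the brainstem median ran from -0.071 to -0.024, nearest to 0 without CAG42 replicate 4 (-0.024) and without WT replicate 3 (-0.025), and 86 to 105 members stayed below 0. The cerebellum median ran from 0.011 without CAG42 replicate 2 and 0.016 without WT replicate 2 to 0.050 without CAG42 replicate 3, and it was 0.040 and 0.043 without WT replicates 3 and 4. The liver median turned below 0 without CAG42 replicate 2 (-0.009), WT replicate 3 (-0.010) or WT replicate 4 (-0.033), and it was 0.060 without WT replicate 1, where the large subunit stood at 0.07 and the small at 0.09. With the brightest probe set of each of the 78 genes, 56 genes were above 0 in cerebellum (median 0.05), 57 below 0 in brainstem (median -0.04) and 50 above 0 in liver (median 0.04).

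Other large gene families sat at similar values. The 128 probe sets of cytosolic ribosomal proteins had medians of 0.06 in cerebellum, -0.03 in brainstem and 0.07 in liver. For the 59 probe sets of respiratory complex I these were 0.08, -0.01 and -0.01, and neither family had a called probe set. The ratio of the 3′ to the 5′ control probe sets of Gapdh, a sign of RNA quality given as a log2 difference, was -0.017 ± 0.022 in CAG42 and 0.037 ± 0.030 in WT brainstem (SD, n = 4). It moved with genotype there, and its part in the brainstem median was not tested. In liver it was 0.245 ± 0.043 in CAG42 and 0.192 ± 0.068 in WT mice, with overlapping ranges. Its part in the Gfm1 difference there was not tested either. The mean over 3 measured of 4 oligodendrocyte markers also moved with genotype in brainstem, from 10.52 to 10.69 on the WT arrays and from 10.755 to 10.811 on the CAG42 arrays, without overlap. In liver these markers lay at 4.42 to 4.96, and their part in the brainstem values was not tested. The mean over 4 measured of 5 erythrocyte markers had the higher median in CAG42 mice in each tissue, with overlapping ranges. It ran from 8.35 to 8.85 in CAG42 and from 7.93 to 8.84 in WT cerebellum, and from 8.52 to 9.21 against 7.99 to 8.93 in brainstem. In liver, where Gfm1 was called, it ran from 8.45 to 8.96 (median 8.78) in CAG42 and from 8.15 to 8.84 (median 8.40) in WT mice, and its part in the genotype differences was not tested.

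**Figure D2:**
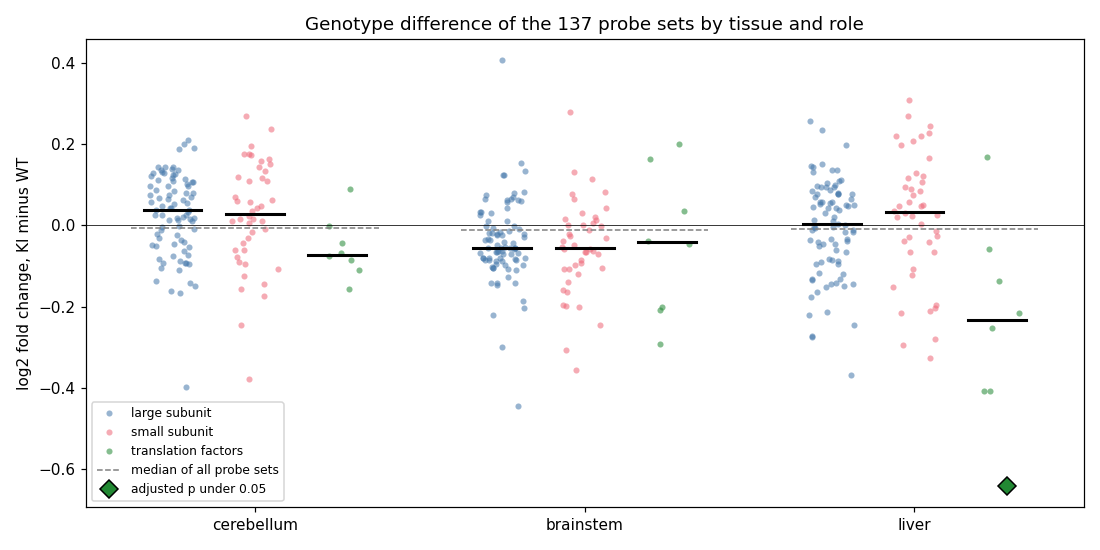
Log2 fold change (CAG42 minus WT) of each of the 137 probe sets by tissue and role, with each point 1 probe set, a bar at the median of a role, a dashed line at the median of all probe sets and a diamond for an adjusted p under 0.05. Most points lie near 0, the medians by role are between -0.07 and 0.04 in the brain tissues, and the lowest point in liver is Gfm1 at -0.64.

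Among small subunit proteins, Mrps17 in cerebellum had the lowest p of all ribosomal proteins there. Its CAG42 mice measured 8.71, 8.77, 8.68 and 8.84 and its WT mice 8.55, 8.47, 8.51 and 8.52. The groups did not overlap, and the log2 fold change was 0.24 (SE 0.06, adjusted p = 0.682 from limma). Mrps24 (1450865_PM_s_at) in cerebellum measured 9.25, 9.35, 9.19 and 9.33 in CAG42 and 9.13, 8.998, 9.10 and 9.11 in WT mice, also without overlap, at 0.20, while its other probe set gave -0.04. Mrps10 had its low values in both brain tissues by 1458999_PM_at: -0.38 in cerebellum and -0.36 in brainstem (SE 0.12 each), and 0.03 in liver. Its brighter probe set, 1428153_PM_at, gave 0.05 in cerebellum, -0.16 in brainstem and -0.01 in liver. In cerebellum its CAG42 mice measured 5.87, 5.67, 5.64 and 6.08 and its WT mice 6.15, 6.41, 6.24 and 5.98, so that CAG42 replicate 4 and WT replicate 4 overlapped. Mrps18b in brainstem measured 7.90, 8.04, 8.01 and 7.86 in CAG42 and 8.13, 8.28, 8.13 and 8.08 in WT mice, a log2 difference of -0.20 without overlap. Mrps23 by 1459806_PM_x_at, a dim probe set, stood at -0.24 in both brain tissues, and Mrps14 (1443262_PM_at) at -0.31 in brainstem. Mrps25 (1418716_PM_at) in cerebellum measured 6.06, 6.36, 6.45 and 6.33 in CAG42 and 6.06, 5.87, 6.07 and 6.13 in WT mice, a log2 difference of 0.27 (SE 0.11). The genotypes overlapped in these 3 genes. In liver Mrps21 measured from 8.96 to 9.07 in the 4 CAG42 and 8.86, 8.84, 8.81 and 8.73 in the WT mice, at 0.20 without overlap (adjusted p = 0.444). Mrps36, whose product has since been assigned to the 2-oxoglutarate dehydrogenase complex, stood at 0.27 in liver (adjusted p = 0.433), and at 0.17 without WT liver replicate 4.

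Among large subunit proteins, Mrpl18 in liver measured 8.79, 8.84, 8.75 and 8.79 in CAG42 and 8.60, 8.68, 8.46 and 8.64 in WT mice, a log2 difference of 0.20 (SE 0.07, adjusted p = 0.397 from limma). Mrpl50 (1424164_PM_at) measured 8.42, 8.48, 8.58 and 8.45 against 8.42, 8.41, 8.09 and 8.06, at 0.24 (adjusted p = 0.462), while its other probe set gave -0.09. Both genes had CAG42 livers above all WT livers, by a narrow margin in Mrpl50. In cerebellum Mrpl53 stood at 0.19 and in brainstem the x_at probe set of Mrpl13 at -0.20, both without overlap. Mrpl36 (0.20) and Mrpl34 (1416349_PM_at, 0.21) in cerebellum and Mrpl55 (1429453_PM_a_at, -0.30) in brainstem overlapped between genotypes. The widest differences in the brain tissues belonged to Mrpl47, at -0.40 in cerebellum and -0.44 in brainstem, with a SE of 0.27 and overlapping groups. Genotypes did not overlap for 4 members in cerebellum (2.92%, against 3.94% of all probe sets), 3 in brainstem (2.19% against 3.7%) and 4 in liver (2.92% against 2.76%).

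Calls in liver differed without the array that stood apart. Without WT liver replicate 1, 3 members passed in liver, as did 6.39% of all probe sets: Gfm1 (1416570_PM_s_at) at -0.59, Mrpl19 (1421914_PM_s_at) at 0.36 with an adjusted p of 0.0277, and Mrpl21 (1456275_PM_at) at -0.56 with an adjusted p of 0.0204 (limma). Mrpl19 measured 7.02, 6.98, 6.98 and 7.15 in CAG42 liver and 7.10, 6.81, 6.37 and 6.84 in WT liver. Mrpl21 measured 5.34, 5.19, 5.46 and 5.20 against 5.10, 5.80, 5.99 and 5.79. In both, WT replicate 1 lay on the CAG42 side and the other 3 WT livers did not overlap with the CAG42 livers. With all arrays they stood at 0.26 (adjusted p = 0.481) and -0.37 (adjusted p = 0.527). Without that array the other 3 probe sets of Mrpl19 gave -0.12 (1440324_PM_at), -0.29 (1421913_PM_at) and 0.18 (1450405_PM_at), against -0.24, -0.10 and -0.07 with all arrays. The other probe set of Mrpl21 gave 0.08 without it and -0.01 with all arrays. None of these 4 was called.

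On each array the median deviation of the 137 members from their tissue means shows how far they shifted together. In cerebellum it was -0.016, 0.110, -0.021 and 0.010 in CAG42 and -0.034, -0.065, 0.036 and 0.004 in WT mice. In brainstem it was 0.001, -0.011, 0.017 and -0.098 against -0.018, 0.054, 0.068 and -0.022, and in liver -0.018, 0.064, -0.012 and -0.014 against 0.146, 0.036, -0.071 and -0.113. The genotypes overlapped in each tissue, and the WT livers spread the widest.

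**Figure D3:**
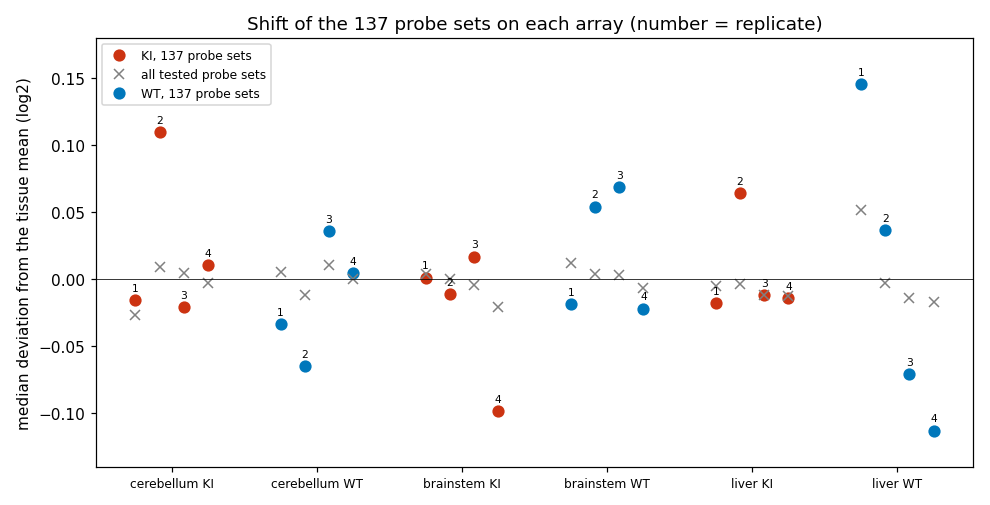
Median deviation of the 137 member probe sets from their tissue means (log2) on each array, by tissue and genotype, with each point labelled by its replicate number and crosses for all probe sets tested. The 4 WT livers run from -0.113 to 0.146, wider than the CAG42 livers at -0.018 to 0.064, and genotypes overlap in every tissue.

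Genes that work beside the mitochondrial ribosome were compared in the same way, each by its brightest probe set. There were 4 of 5 ribosomal proteins under other symbols, 3 of 6 release, recycling and rescue factors, 21 of 23 genes for aminoacyl-tRNAs, 20 of 25 assembly factors, 13 of 16 genes of mitochondrial RNA synthesis and processing, and 8 of 9 transcription regulators. None of these passed the adjusted threshold in any tissue by limma. At an unadjusted p under 0.05 there were 8 of the 69 in liver (11.6%, against 8.61% of all probe sets), 2 in brainstem (2.9%, against 4.17%) and 2 in cerebellum (2.9%, against 3.59%).

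The assembly factor Trub2, a pseudouridine synthase of mitochondrial RNA, had the lowest p in liver: 5.63 ± 0.16 against 6.22 ± 0.11 in CAG42 and WT liver (SD, n = 4), with a change of -0.60 on the log2 scale (SE 0.13, adjusted p = 0.0713 from limma) without overlap. In cerebellum it stood at -0.35. Trub2 was read here by a probe set marked x_at, which in the maker's naming can also bind transcripts of other genes. The part of such binding in the Trub2 values was not tested. Gatb, a subunit of the enzyme that forms glutaminyl-tRNA in mitochondria, measured 6.50 ± 0.12 in CAG42 and 6.89 ± 0.09 in WT liver, at -0.39 (adjusted p = 0.117), again without overlap. Among the synthetases proper, Lars2 (leucine) had the widest difference in liver, at -0.49. Sars2 (serine) and Iars2 (isoleucine) each stood at -0.40 and Nars2 (asparagine) at -0.37 there. The median over the 21 aminoacyl-tRNA genes in liver was -0.14, with 14 below 0. Fastkd2, an RNA-binding protein of the mitochondrial RNA granule, stood at -0.23, and the median over the assembly factors was -0.03. The 8 transcription regulators were all above 0 in liver, with a median of 0.24, among them Pprc1 at 0.42 and Myc at 0.38 (adjusted p = 0.436 for Myc). Without WT liver replicate 1 Trub2 stood at -0.55, Gatb at -0.43, Lars2 at -0.39, Sars2 at -0.27, Iars2 at -0.25 and Nars2 at -0.23. The median over the aminoacyl-tRNA genes was then -0.06, with 12 below 0, that over the assembly factors 0.04, and that over the regulators 0.46, with 8 above 0. The regulator median fell to 0.10 without WT liver replicate 3, with 5 above 0 and 3 below. Without WT liver replicate 4 it was 0.11, with 7 above 0.

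How the levels differ between tissues was asked next, over the 8 mice of each tissue. The median log2 value of the arrays was lower in liver than in brain, so liver differences were computed on the deposited scale, after quantile normalization over all arrays and with each array centred on its median. On the deposited scale 115 of 137 members differed between liver and cerebellum (52 higher in liver, 63 lower), where 86.7% of all probe sets did (40.0% higher, 46.7% lower). Between liver and brainstem 110 differed (37 higher, 73 lower), where 86.3% of all did (37.1% higher, 49.1% lower), and between cerebellum and brainstem 96 (13 higher in cerebellum, 83 lower), where 58.3% of all did (23.3% higher, 35.0% lower). After quantile normalization the splits were 88 higher and 31 lower, 82 and 32, and 22 and 61. With centring they were 74 and 48, 68 and 53, and 20 and 65. Whether more members were called higher or lower in liver thus turned with the scaling. Between cerebellum and brainstem, more members were called lower in cerebellum than higher under each. The quantile and centred splits were not set beside those of all probe sets. The medians over all probe sets on the deposited scale were -0.08, -0.16 and -0.07 in the 3 comparisons, 0.02, 0.04 and 0.01 after quantile normalization, and 0.25, 0.26 and 0.02 with centring.

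The small subunit probe sets had the lower median in both liver comparisons under each scaling, a difference that was not tested. Between liver and cerebellum the median was 0.00 over the large and -0.45 over the small subunit on the deposited scale, 0.51 and 0.40 after quantile normalization, and 0.33 and -0.12 with centring. Between liver and brainstem these were -0.12 and -0.56, 0.41 and 0.14, and 0.30 and -0.14. With the brightest probe set of each gene the gap shrank to -0.10 and -0.15 against cerebellum, and -0.38 and -0.42 against brainstem. Between cerebellum and brainstem the medians of large subunit, small subunit and factors were -0.24, -0.27 and -0.20, and each stayed below 0 under the other scalings.

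**Figure D4:**
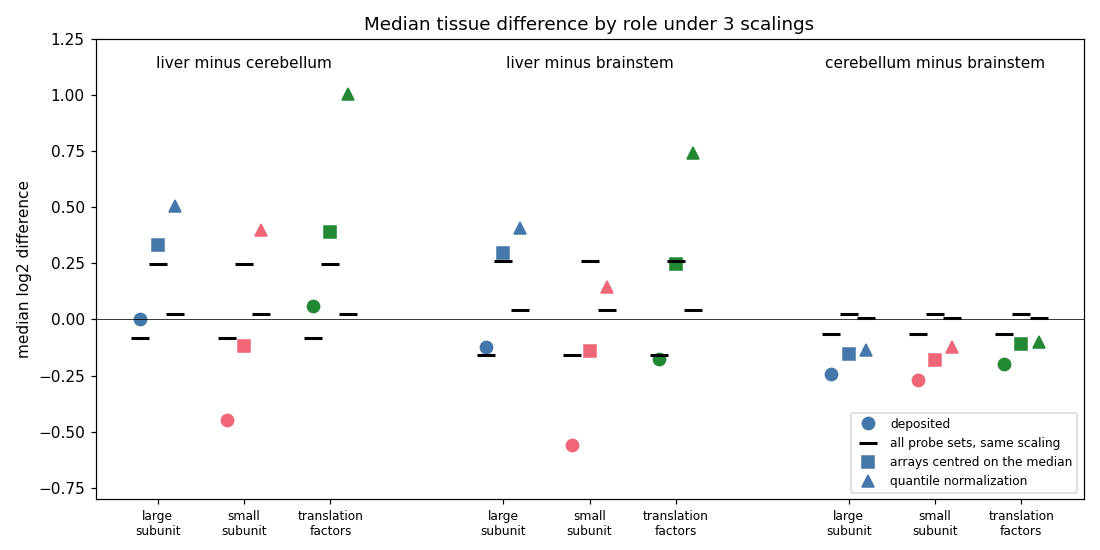
Median log2 difference of large subunit, small subunit and translation factor probe sets in the 3 tissue comparisons, on the deposited scale, after quantile normalization over all arrays and with each array centred on its median. The liver medians against brainstem change sign with the scaling, as does that of the small subunit against cerebellum, from -0.45 to 0.40. Those of the large subunit and the factors against cerebellum stay above 0, and all cerebellum minus brainstem medians lie below 0.

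Members called the same way under all 3 scalings carry a direction. Against cerebellum these were 51 higher in liver (34.7% of all probe sets were) and 27 lower (32.5%), while 25 members were called in opposite directions by different scalings. Against brainstem they were 36 higher (33.7%) and 31 lower (31.5%), with 25 called in opposite directions. The share of all probe sets called in opposite directions was not taken, so these counts do not set the members apart. Against both brain tissues 36 members, of 28 genes, were higher in liver (29.2% of all): 28 of the large subunit, 6 of the small and 2 factors. There were 24 members, of 19 genes, lower in liver than in both (26.4% of all): 12 of the large subunit, 11 of the small and 1 factor. Between cerebellum and brainstem 13 were higher in cerebellum (22.9% of all) and 59 lower (25.7%), with 0 in opposite directions. Over 1 on the log2 scale and called, on the deposited scale, were 26.3% of members between liver and cerebellum (46.3% of all), 31.4% between liver and brainstem (45.2%) and 0 between cerebellum and brainstem (12.0% of all). The 8 mice of one tissue did not overlap with the 8 of the other for 62.8% of members between liver and cerebellum (64.8% of all), 59.1% between liver and brainstem (63.5%) and 39.4% between cerebellum and brainstem (36.8%).

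Of the translation factors, Gfm1 was higher in liver by 1416570_PM_s_at under all 3 scalings, at 7.79 to 8.14 in cerebellum (median 8.04), 7.91 to 8.08 in brainstem (median 8.03) and 8.85 to 9.77 in liver (median 9.28). All livers lay above all brain samples, and the deposited difference was 1.28 against either tissue. The other Gfm1 probe set went the opposite way, at 6.11 to 6.52 in cerebellum, 6.42 to 6.86 in brainstem and 4.64 to 5.88 in liver, with -1.51 against brainstem and -0.45 by the scaling nearest to 0. Tsfm was lower in liver under all 3 scalings, at 7.74 to 7.95 in cerebellum (median 7.87), 7.80 to 8.03 in brainstem (median 7.91) and 6.39 to 7.18 in liver (median 6.61). Its deposited difference of -1.20 against cerebellum and -1.23 against brainstem shrank to -0.19 and -0.12 by the scaling nearest to 0. Tufm was higher in liver than in both brain tissues under all 3 scalings by 1447780_PM_x_at (deposited 0.55 and 0.21). Mtif2 was higher in liver than in cerebellum under all 3 (0.20 deposited) but flipped against brainstem, from -0.28 to 0.73. Gfm2 by 1426590_PM_at was called in neither liver comparison on the deposited scale, and its difference from cerebellum ran from -0.04 to 1.04 over the scalings. The Tufm probe set 1433952_PM_at was higher in liver than in cerebellum under all 3 (0.16 deposited) and flipped against brainstem, from -0.16 to 0.75.

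Among large subunit proteins higher in liver under all 3 scalings, the 3 widest differences from cerebellum came from probe sets marked x_at, which in the maker's naming can also bind transcripts of other genes. Mrpl13 1435966_PM_x_at measured 4.59 to 4.96 in cerebellum (median 4.72), 5.39 to 5.68 in brainstem (median 5.58) and 7.62 to 7.95 in liver (median 7.84), a difference of 3.08 from cerebellum and 2.27 from brainstem. The other probe sets of Mrpl13 had means of 9.47 and 7.86 in cerebellum and 9.47 and 7.96 in liver. Mrpl28 1456313_PM_x_at measured 3.91 to 4.32 in cerebellum (median 4.06), 4.32 to 4.50 in brainstem (median 4.37) and 6.80 to 7.20 in liver (median 7.07), a difference of 2.95 from cerebellum, where the other Mrpl28 probe set gave -0.27. Both Mrpl30 probe sets were higher in liver, by 2.35 (1447651_PM_x_at) and 0.85 against cerebellum. Mrpl11 1438080_PM_at, which is not so marked, measured 3.38 to 3.95 in cerebellum (median 3.55), 3.09 to 3.58 in brainstem (median 3.33) and 4.70 to 6.19 in liver (median 5.87), a difference of 2.13 from cerebellum and of 2.41 from brainstem. Against brainstem it was the second widest, after Mrpl28. Of the other 3 Mrpl11 probe sets, all brighter, 2 were lower in liver than in cerebellum on the deposited scale (-0.66 and -0.77) and 1 stood at 0.12. Mrpl1 1450948_PM_a_at was higher in liver than in cerebellum by 1.45, where 1423351_PM_at gave -1.26, and Mrpl21 1456275_PM_at was higher than in brainstem by 1.41, where 1452580_PM_a_at gave -1.08. In these genes a liver value from 1 probe set was not matched in size by another, and the part of binding to other transcripts was not tested.

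Some genes were higher in liver than in both brain tissues by every probe set and under all 3 scalings: Mrpl52 by 4 of 4, and Mrpl14, Mrpl15 and Mrpl30 by 2 of 2. These were picked after their values were seen. Mrpl52 1415761_PM_at measured 7.47 to 7.72 in cerebellum (median 7.60), 7.98 to 8.34 in brainstem (median 8.03) and 8.16 to 8.37 in liver (median 8.31). All livers exceeded all cerebella and overlapped with brainstem. Mrpl15 had means of 7.94 in cerebellum, 8.33 in brainstem and 9.09 in liver by 1425189_PM_a_at, and Mrpl14 of 8.14, 8.50 and 9.27 by 1451307_PM_at. By these 3 probe sets the order was liver above brainstem above cerebellum. The dimmer Mrpl15 1451623_PM_at had means of 3.84, 3.86 and 5.70 and Mrpl14 1445464_PM_at of 3.06, 3.21 and 4.86. By Mrpl52 1455366_PM_at cerebellum (mean 3.53) was above brainstem (3.22) under all 3 scalings, the reverse of its other probe sets.

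Genes lower in liver under all 3 scalings included several of the small subunit. Mrps25 measured 5.87 to 6.45 in cerebellum (median 6.10), 6.53 to 6.81 in brainstem (median 6.70) and 4.02 to 4.67 in liver (median 4.22) by 1418716_PM_at, with deposited differences of -1.94 from cerebellum and -2.47 from brainstem. Its probe set 1418717_PM_at gave -1.96 and -2.33. By 1449194_PM_at it was lower in liver than in brainstem under all 3 scalings (-1.83 deposited), but against cerebellum the sign turned, from -0.85 to 0.17. Mrps5 1435563_PM_at measured 6.64 to 7.05 in cerebellum (median 6.95), 6.96 to 7.43 in brainstem (median 7.20) and 4.14 to 5.49 in liver (median 4.57), at -2.24 and -2.54. Mrps6, read by a single probe set, measured 8.65 to 9.07 in cerebellum (median 8.77), 9.11 to 9.47 in brainstem (median 9.30) and 7.08 to 7.70 in liver (median 7.39), at -1.39 and -1.87. In Mrps6 and by this Mrps5 probe set no liver reached any brain sample. Mrps5 1459439_PM_at was also lower in liver, at -1.29 and -0.81. The brightest Mrps5 probe set, 1448488_PM_at, overlapped between liver (6.38 to 7.33) and brain (6.61 to 7.01) at -0.03 and 0.01, and 1453954_PM_a_at turned with the scaling, from -0.50 to 0.56 against cerebellum. Mrps15 1430100_PM_at measured 5.26 to 6.07 in cerebellum (median 5.82), 4.50 to 5.34 in brainstem (median 4.92) and 3.02 to 3.86 in liver (median 3.32), at -2.44 and -1.56, while its brighter probe set 1449294_PM_at was higher in liver than in cerebellum by 0.57. Mrps10 1458999_PM_at was lower in liver by -2.10 and -1.28, while 1428153_PM_at gave 0.35 and -0.42.

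Of the large subunit, Mrpl48 was lower in liver by both probe sets. By 1428302_PM_at it measured 9.36 to 9.80 in cerebellum (median 9.63), 9.69 to 9.96 in brainstem (median 9.84) and 8.47 to 8.78 in liver (median 8.72), at -0.98 and -1.19 on the deposited scale. Mrpl58, a peptidyl-tRNA hydrolase built into the large subunit that can free stalled ribosomes, had means of 4.69 in cerebellum, 5.45 in brainstem and 2.90 in liver by 1444276_PM_at. Its far brighter probe set, 1460308_PM_a_at, had means of 9.68, 9.61 and 9.08, lower in liver than in cerebellum under all 3 scalings (-0.60 deposited) and turning against brainstem, from -0.53 to 0.16. Mrpl19 1450405_PM_at was lower in liver by -1.57 and -1.78. Mrpl57 1460225_PM_at stood at -1.96 and -1.62 and its brighter probe set 1418137_PM_at at 0.29 and -0.37. Mrpl38 1444217_PM_at stood at -1.88 and -1.07, 1430610_PM_at at 0.42 and 0.83, and the brightest, 1447961_PM_s_at, at -0.15 and -0.12. Mrpl35 1440989_PM_at measured 6.89 to 7.29 in cerebellum (median 7.12), 7.44 to 7.84 in brainstem (median 7.77) and 4.78 to 5.19 in liver (median 5.06), at -2.13 and -2.72. Its other 2 probe sets were higher in liver than in cerebellum on the deposited scale, by 0.60 and 0.70.

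**Figure D5:**
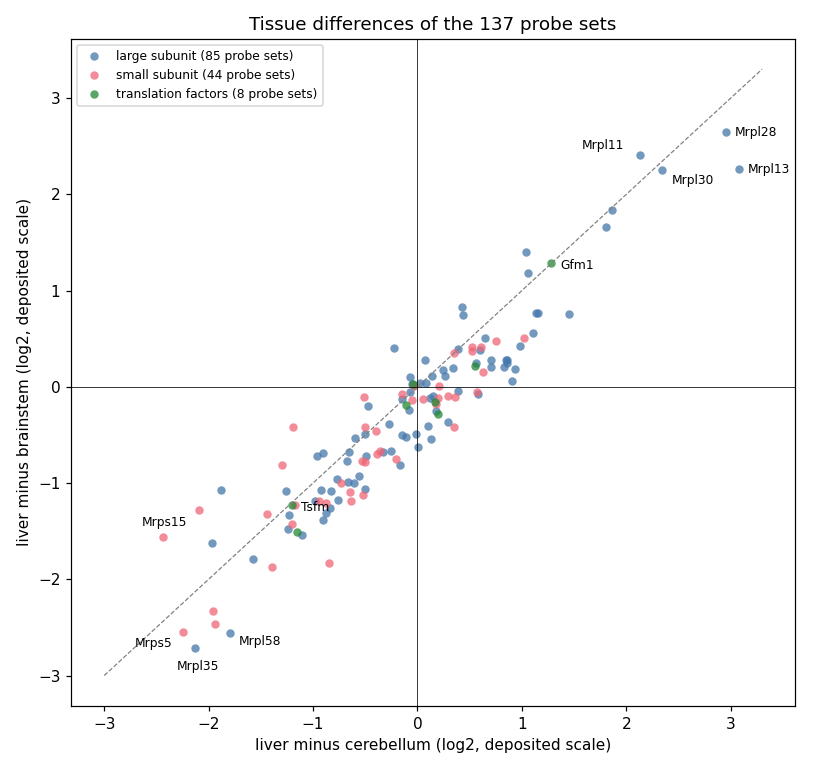
Deposited-scale log2 difference of liver from cerebellum (x axis) and from brainstem (y axis) for the 137 probe sets, coloured by role, with each point 1 probe set, a dashed line of equal differences, and 10 genes named. Mrpl13 lies at 3.08 and 2.27 and Mrpl35 at -2.13 and -2.72, and under other scalings 25 members turn direction in either comparison. The share of all probe sets that turn was not taken.

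Probe sets of a gene often did not point one way. Of the 41 genes with over 1 probe set, the probe sets shared a sign on the deposited scale in 24 genes between liver and cerebellum, in 22 between liver and brainstem and in 19 between cerebellum and brainstem. In 14, 13 and 8 genes, probe sets were called in both directions. For the genotype differences they shared a sign in 17 genes in cerebellum, 20 in brainstem and 15 in liver. None of these counts was compared with other genes of over 1 probe set or with chance, so they do not set the members apart. Mrps10 showed this between the brain tissues: 1428153_PM_at measured 8.46 to 8.74 in cerebellum and 9.17 to 9.60 in brainstem, a difference of -0.77, while 1458999_PM_at measured 5.64 to 6.41 and 4.81 to 5.65, a difference of 0.81.

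The widest differences between cerebellum and brainstem lay on both sides by single probe sets. With the brightest probe set of each gene, 3 of the 78 were called higher in cerebellum and 55 lower. Of all 17097 named genes 3029 were higher and 7457 lower. Lower in cerebellum, Mrpl40 measured 7.58 to 7.88 in cerebellum (median 7.74) and 8.37 to 8.75 in brainstem (median 8.56), a difference of -0.84 and between -0.84 and -0.75 over the scalings. Mrps25 1449194_PM_at differed by -0.98, Mrpl13 1435966_PM_x_at by -0.81, Mrpl58 1444276_PM_at by -0.76, Mrpl17 1450866_PM_a_at by -0.74, Mrpl1 1450948_PM_a_at by -0.70 and Mrpl33 1448190_PM_at by -0.68. In each of these no cerebellum reached a brainstem sample. Higher in cerebellum were Mrps15 1430100_PM_at by 0.88, Mrpl38 1444217_PM_at by 0.81 and Mrps14 1443262_PM_at by 0.78. Brighter probe sets of Mrps15 (1449294_PM_at, -0.62) and Mrps14 (1420488_PM_at, -0.44) had the opposite sign, and the brightest of Mrpl38 stood at 0.02. Also among the 8 widest were Mrps10 1458999_PM_at (0.81), Mrpl47 (0.63), Mrps5 1459439_PM_at (0.48), Mrpl38 1430610_PM_at (0.41) and Mrps11 1455233_PM_at (0.41), whose brighter probe set gave -0.24. Gapdh 3′ to 5′ log2 differences were 0.245 ± 0.043 in CAG42 and 0.192 ± 0.068 in WT liver and -0.075 ± 0.057 and -0.052 ± 0.054 in cerebellum (SD, n = 4). RNA quality by this measure thus differed between tissues, and its part in the tissue differences was not tested.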

How the data were processed

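RNA of 4 CAG42 and 4 WT mice per tissue was hybridized to Affymetrix arrays (probe sets of the perfect-match type, where the methods name MOE430 2.0). The deposited values are log2 intensities that the authors made with RMA, under R 2.7.0 per the submitters' notes. Depth has no meaning for arrays and their number limits the precision. Whether tissues were normalized together and how bright the background was is stated by no source used here, and no scan date was used. Age comes from the methods, all groups from the labels. Labels and methods name different RNA preparations.

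Of 45141 probe sets, 104 controls were left out. Names came from the platform's annotation. limma 3.58.1 in R 4.3.3 fitted the 6 tissue and genotype means to the 24 arrays together, with empirical Bayes moderation. Genotypes were compared within tissue, tissues over both genotypes equally, and genotype effects between tissues, with Benjamini-Hochberg adjustment over 45037 probe sets per comparison and calls at an adjusted p under 0.05. Exact permutation tests ran on single probe sets. p-values measure the spread between these mice. Named in the text are all factor probe sets, the 8 members of lowest p per genotype comparison, and the 8 widest called tissue differences per direction and comparison; other named members were chosen after their values were seen. Members and lists were chosen with earlier results of these data known.

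Alternatives were a fit per tissue, replicate blocks, a filter on dim probe sets, 3 other normalizations, array weights, gene means, 1 F statistic, a trended robust prior, WT arrays only and each array left out, besides, added after seeing the data, the brightest probe set per gene and a fixed block. Same-numbered arrays of a genotype deviated together in cerebellum and brainstem (r of 0.224 to 0.375 in 8 pairs). With liver the r was lower, 0.042 to 0.161 for brainstem and 0.078 to 0.285 for cerebellum. Arrays of different numbers gave -0.122 to 0.027 and -0.202 to 0.096 there. The blocks across tissues took numbers as pairs over all 3 tissues, which neither labels nor methods state. The main fit took no pairs. The procedure was tested on simulated data. Python 3.11.15 with matplotlib 3.10.9 drew the plots, and sequences are RefSeq's on GRCm38.p6.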

Additional observations from a re-analysis of the deposited data

Results flagged for a closer look

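Of 94 groups of 4 samples examined, 4 held a sample far from the other 3, and chance gives about 1 in 20. Mrpl13 1435966_PM_x_at was 5.5996 in WT brainstem replicate 4, with the others at 5.6783 to 5.6789. Mrps36 1423242_PM_at was 7.6639 in WT liver replicate 4, with the others at 8.05 to 8.0859, and the genotype difference was 0.17 without it. Gfm1 1448381_PM_at was 5.8824 in WT liver replicate 1, with the others at 5.068 to 5.1858. The median deviation over the 137 members was 0.064252 in CAG42 liver replicate 2, with the others at -0.017774 to -0.011902.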

How the results depend on the processing

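The Gfm1 call in liver (1416570_PM_s_at, -0.64) was lost when each tissue was fitted alone, where 0 members were called (adjusted p = 1.00 in limma), and it held under the other alternatives run, from 0.000138 to 0.0299 in adjusted p over these and from -0.68 to -0.59 with 1 array left out. Leaving out 1 array gave 1 to 3 called members in liver, 3 without WT liver replicate 1. A single F statistic over the 3 tissues called 1 probe set, Gfm1, which then counts as 1 in cerebellum and 1 in brainstem. Averaged by gene, Gfm1 stood at -0.52 (adjusted p = 0.0159) and Mrpl19 turned from 0.26 by 1421914_PM_s_at to -0.037 (adjusted p = 0.967), while without WT liver replicate 1 that Mrpl19 probe set stood at 0.36 (adjusted p = 0.0277). Tissue calls by gene mean were 66, 61 and 57 of 78 genes (liver against cerebellum, liver against brainstem, cerebellum against brainstem). By the brightest probe set they were 67, 62 and 58 of 78, or 85.9%, 79.5% and 74.4%. Of all 17097 named genes 88.9%, 89.1% and 61.3% were called by the brightest probe set. Both settings count genes, where the main fit counts 137 probe sets. By the brightest probe set the adjusted p of Gfm1 in liver was that of the main fit (0.000726, limma). With 1 array left out the tissue counts ran from 112 to 119, 108 to 115 and 89 to 101 of 137 probe sets. The replicate block within tissue kept Gfm1 at an adjusted p of 0.0299 (limma). The block across tissues, which paired numbers over all 3 tissues, gave 116, 111 and 97 tissue calls. Neither block changed another call by genotype. In all, 410 of the summary values stayed near that of the main fit, by a rule that lets a small median change sign, and 10 moved. Of the values for single probe sets 846 were rated the same, 2 stronger, 1 weaker and 1 reversed. Low values near the background cannot be told from it, and 23 of the 137 members lay at or below the median level of all probe sets.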
